A study of Mus musculus with 4 samples.

Results

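The genes that write, erase and read DNA methylation were examined in primary mouse neural stem/progenitor cells (NSCs) with and without Chd5, a chromodomain helicase DNA-binding protein that remodels nucleosomes. The 9 genes were taken by name from a deposited expression table of 18169 rows, and each was found in it. They were the methyltransferases Dnmt1, Dnmt3a and Dnmt3b, the Dnmt1 partner Uhrf1, the 5-methylcytosine dioxygenases Tet1, Tet2 and Tet3, and the methyl-CpG binding proteins Mbd1 and Mbd2. RNA was sequenced from 4 samples, 2 of the +/+ genotype and 2 of the Chd5-/- genotype, numbered replicate 1 and replicate 2 within each. All were C57BL/6 cultures, each grown from the periventricular region of a single newborn brain in medium with EGF and FGF2, so every value describes proliferating cultures and not tissue. The growth protocol gives postnatal day 1, while the age entries of the labels put the +/+ cultures at days 1 and 2 and the knockouts at days 3 and 4. If those entries hold, age and genotype cannot be told apart.

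DNA methylation in mammals sits mainly on cytosines of CpG dinucleotides. Dnmt3a and Dnmt3b place new marks, Dnmt1 copies them to the daughter strand after replication, and Uhrf1 brings Dnmt1 to hemimethylated sites. The Tet enzymes oxidise 5-methylcytosine, and the oxidised bases are lost at replication or removed by base excision repair. Mbd1 and Mbd2 bind methylated CpG and recruit repressor complexes. In neural progenitors, Dnmt1 is known for maintaining methylation through division and Dnmt3a for methylation set during postnatal neurogenesis.

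Expression was given as TPM (a transcript's share of all transcripts after division by its length, on a fixed total), which is scaled by transcript length, so levels of different genes can be compared. Each sample adds to about the same total, and TPM keeps no record of read number, so the sequencing depth behind each value is unknown. Chd5 was listed at 0.39 and 0.37 TPM in +/+ cultures against 0.06 and 0.04 TPM in Chd5-/- cultures, too low to test. The neural stem cell marker Fabp7 was at 1938.77 TPM or more in every sample, and the 3 microglial genes that were found, P2ry12 and Itgam among them, summed to 0.75 TPM or less. The stem cell markers, led by Fabp7 and Vim, were lower in sum in the Chd5-/- samples (3880 and 6678 TPM) than in the +/+ samples (9778 and 8132 TPM). Of these 10 genes, 4 lay below both +/+ values in both Chd5-/- samples and 0 above (13.0% and 46.3% of all rows tested did). Prom1 was highest in Chd5-/- replicate 1 (45.27 TPM), and Pax6 (54.41 TPM) and Hes5 (43.69 TPM) in Chd5-/- replicate 2. Neuronal (led by Map2), astrocyte (led by Glul) and oligodendrocyte lineage genes (led by Olig1) had their highest sums in Chd5-/- replicate 2, at 934, 2046 and 928 TPM, and their lowest in Chd5-/- replicate 1, at 529, 753 and 504 TPM. Other members differed in order, and Gap43 (147.89 TPM) and Olig2 (190.31 TPM) were highest in Chd5-/- replicate 1, while Gja1 (179.69 TPM) was lowest in +/+ replicate 1. Mesenchymal and endothelial genes, led by Col3a1 and Dcn, summed to 12.93 TPM in Chd5-/- replicate 1 and to at most 0.71 TPM elsewhere. The +/+ samples correlated at a Spearman rho of 0.974 across rows and the Chd5-/- samples at 0.904, which was no higher than the values between genotypes (0.904 to 0.925). The part of these differences in the values below was not tested.

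In the +/+ samples the levels of the 9 genes spanned from under 1 TPM to over 70 TPM. Mbd2 stood first at 73.3 TPM ± 0.042 (SD, n = 2, as for all values that follow). Mbd1 (18.5 ± 1.87), Dnmt1 (18.3 ± 3.73) and Dnmt3a (16.5 ± 2.45) came next, with ranges that overlapped each other. Uhrf1 was at 11.9 ± 3.5 TPM, and its range did not reach that of Dnmt3a. Tet3 (9.22 ± 2.21), Tet2 (8.98 ± 2.79) and Tet1 (6.82 ± 2.75) could not be told apart by their ranges, and Tet3 also overlapped Uhrf1. Dnmt3b was last at 0.56 ± 0.042 TPM. In the Chd5-/- samples the order was the same except that Dnmt1 (30.3 ± 2.27 TPM) stood above Mbd1 (25.7 ± 1.03 TPM), without overlap. Of the rows tested, 81.5% had a lower mean than Mbd2, 57.5% a lower mean than Dnmt1 and 31.4% a lower mean than Tet1.

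**Figure D1:**
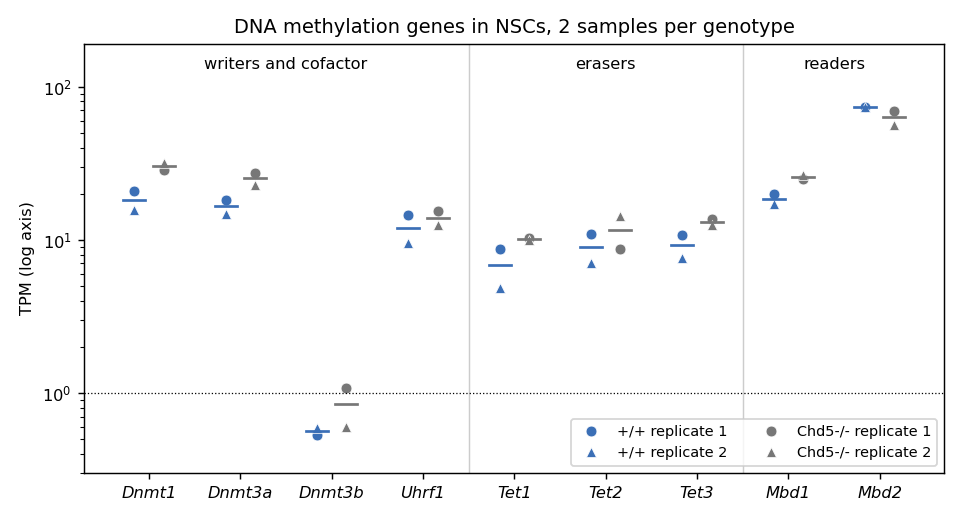
TPM (log axis) of the 9 genes in each of the 2 +/+ and 2 Chd5-/- samples, with a line at each genotype's mean. Dnmt1, Dnmt3a, Tet1, Tet3 and Mbd1, and Dnmt3b by 0.01 TPM in 1 sample, lay above the +/+ range in both Chd5-/- samples, Mbd2 was lower, and Uhrf1 and Tet2 overlapped.

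Genotype differences were tested with limma, using log2(TPM + 1), over the 12576 rows that averaged 1 TPM or more, with Benjamini-Hochberg adjustment over all of them. A log2 difference is the Chd5-/- mean minus the +/+ mean on this scale, which understates the change of low genes. Of the 9 genes, 8 passed the minimum, and Dnmt3b did not. None of the 8 had an adjusted p-value under 0.05, against 0.0557% of all rows (7 rows). At an unadjusted p-value under 0.05, 1 of the 8, Dnmt1, was higher, where 21.9% of all rows were, and 0 were lower, where 2.27% of all rows were. In 5 of the 8 both Chd5-/- samples lay above both +/+ samples, where 46.3% of all rows did, and in 1 of the 8 both lay below, where 13.0% did. The median difference of the 8 genes was 0.46, beside 0.34 over all rows tested. These counts are near those of the table as a whole, in which most rows were higher in Chd5-/- samples.

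**Figure D2:**
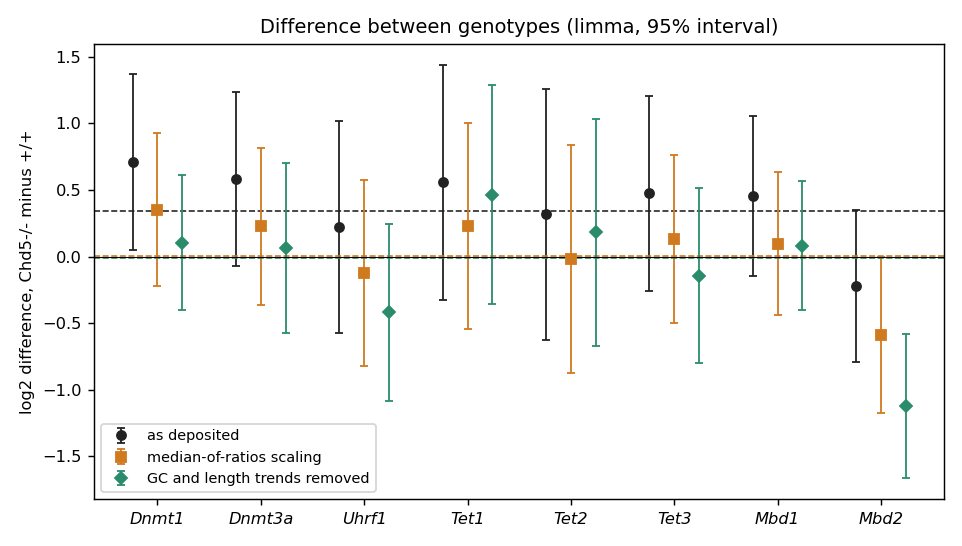
Log2 difference in log2(TPM + 1), Chd5-/- minus +/+, of the 8 genes tested, with 95% confidence intervals from limma, as deposited, after median-of-ratios scaling and after removal of GC and length trends, with dashed lines at the median of all rows in each. With the values as deposited, the interval of Dnmt1 (0.050 to 1.37) was the only interval of the 8 that did not reach 0.

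Dnmt1, the maintenance methyltransferase, was at 20.93 and 15.66 TPM in +/+ cultures against 28.73 and 31.94 TPM in Chd5-/- cultures. These ranges were apart, and the Chd5-/- mean was 1.66-fold the +/+ mean. The log2 difference was 0.71 (95% interval 0.050 to 1.37, SE 0.26), with an unadjusted p of 0.0394 and an adjusted p of 0.187 by limma. The difference was above the 0.40 that separated the +/+ replicates on the same scale. As in any bulk RNA sample, fewer cells of a type and less RNA per cell cannot be told apart, for this gene or those that follow. Without +/+ replicate 1, +/+ replicate 2 or Chd5-/- replicate 2, the unadjusted p of Dnmt1 was no longer under 0.05, and the log2 difference ranged from 0.51 to 0.91 over the 4 fits that left out a sample each. The unadjusted p was also 0.174 after median-of-ratios scaling (log2 difference 0.35), 0.152 after quantile normalization (0.38), 0.102 when rescaled without the 20 most abundant rows (0.48), 0.605 with the trends of GC content and length subtracted (0.11) and 0.0733 with the replicate block. Its position is chromosome 9 (GRCm38), 20907209 to 20959888 on the minus strand.

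Dnmt3a, the main de novo methyltransferase by level in these cells, was at 18.24 and 14.77 TPM in +/+ cultures against 27.41 and 22.94 TPM in Chd5-/- cultures. The genotypes did not overlap, and the ratio of means was 1.53. The log2 difference was 0.58 (95% interval -0.072 to 1.24, SE 0.26), with an adjusted p of 0.243, and it was 0.23 after median-of-ratios scaling. Its position is chromosome 12, 3806007 to 3914443 on the plus strand.

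Dnmt3b, the other de novo enzyme, was at 0.53 and 0.59 TPM in +/+ cultures against 1.08 and 0.60 TPM in Chd5-/- cultures (chromosome 2, 153649450 to 153687730, plus strand). Only Chd5-/- replicate 1 reached 1 TPM, and the other Chd5-/- sample was within 0.01 TPM of the higher +/+ sample. With no minimum TPM, the log2 difference was 0.23 and the adjusted p 0.543. Dnmt3b held between 1.08% and 1.90% of the summed TPM of the 3 methyltransferases in the 4 samples, and Dnmt1 held between 50.2% and 57.6%. That sum was 39.7 and 31.02 TPM in +/+ cultures against 57.22 and 55.48 TPM in Chd5-/- cultures.

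Uhrf1, the ubiquitin ligase that reads hemimethylated CpG for Dnmt1, was at 14.41 and 9.46 TPM in +/+ cultures against 15.30 and 12.44 TPM in Chd5-/- cultures. The genotypes overlapped, and the +/+ replicates differed by 0.56 on the log2 scale. The log2 difference was 0.22 (95% interval -0.57 to 1.02, SE 0.31), with an adjusted p of 0.685. It was -0.12 after median-of-ratios scaling, so its sign depends on the scaling. The median of all rows tested was 0.34 as deposited and 0.0052 after that scaling, and Uhrf1 lay below it in each. The interval includes the 0.71 found for Dnmt1, and Dnmt1 and Uhrf1 cannot be said to differ in their response on this ground. Its position is chromosome 17, 56303321 to 56323486 on the plus strand.

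The ratio of Dnmt1 to Uhrf1 within a sample, taken as log2 of (TPM + 1), does not depend on how samples are scaled beyond the pseudocount. It was 0.51 and 0.67 in +/+ cultures against 0.87 and 1.29 in Chd5-/- cultures. The difference of 0.49 had an exact two-sided permutation p of 0.333, the smallest that 2 samples against 2 allow, and it was 0.28 without Chd5-/- replicate 2. The ratio of Dnmt3a to Dnmt3b was 3.65 and 3.31 against 3.77 and 3.90, a difference of 0.36 with the same smallest p, and it rests on the low values of Dnmt3b. That difference was 0.19 without +/+ replicate 2 and 0.15 with a pseudocount of 0.1. Dnmt1 to Dnmt3a differed by 0.13 between genotypes, with overlap. With 8 such ratios planned, 3 did not overlap between genotypes. For 2 samples against 2, a share of 0.333 of all arrangements is without overlap, and the count is near that share. The ratios also share genes, and no ratio could pass a threshold at this number of samples.

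The stretch before a start site of Dnmt1, of Dnmt3a and of Uhrf1 is shown, because Dnmt1 and Dnmt3a were higher in both Chd5-/- samples while Uhrf1 overlapped. Each is the 250 bases before an annotated RefSeq start on GRCm38.p6, written 5′ to 3′ on the gene's strand, with CpG in capitals. They are chr9:20952980-20953229 on the minus strand, chr12:3806730-3806979 on the plus strand and chr17:56304063-56304312 on the plus strand.
Dnmt1: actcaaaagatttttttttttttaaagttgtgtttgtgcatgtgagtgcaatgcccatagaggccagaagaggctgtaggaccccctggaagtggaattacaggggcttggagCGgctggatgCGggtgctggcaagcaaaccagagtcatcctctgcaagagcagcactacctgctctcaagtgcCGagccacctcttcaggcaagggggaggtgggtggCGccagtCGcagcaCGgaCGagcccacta
Dnmt3a: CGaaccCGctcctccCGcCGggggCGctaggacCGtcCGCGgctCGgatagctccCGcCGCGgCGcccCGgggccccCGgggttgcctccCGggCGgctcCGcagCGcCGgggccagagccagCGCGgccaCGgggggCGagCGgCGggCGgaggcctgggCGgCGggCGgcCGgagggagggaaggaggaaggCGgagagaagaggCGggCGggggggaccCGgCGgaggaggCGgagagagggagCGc
Uhrf1: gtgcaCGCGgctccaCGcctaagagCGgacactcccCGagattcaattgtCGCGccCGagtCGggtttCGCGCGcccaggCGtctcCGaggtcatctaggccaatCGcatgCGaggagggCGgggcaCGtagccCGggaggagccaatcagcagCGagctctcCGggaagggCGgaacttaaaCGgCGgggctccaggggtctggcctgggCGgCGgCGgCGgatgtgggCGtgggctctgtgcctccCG
The Dnmt1 stretch holds 7 CpG, the Dnmt3a stretch 38 and the Uhrf1 stretch 30, where the median of 32851 such stretches was 6. Dnmt3a exceeded 98.1% of them and Uhrf1 94.1%. The letters GGGCGG, a GC box as bound by Sp1, were found on either strand 0 times in the Dnmt1 stretch shown, 5 times in Dnmt3a and 3 times in Uhrf1, and at least once in 32.7% of all stretches. The letters TTTNNCGC, which resemble an E2F site, were found once in Uhrf1, 0 times in the other stretches shown, and in 4.28% of all stretches. No base was shared by the motifs. Dnmt1 has other annotated starts, and a stretch upstream of one of them, which overlaps an annotated exon and is not shown, holds 26 CpG, 2 matches to GGGCGG and 2 to TTTNNCGC. Another Dnmt1 stretch, also not shown, holds 2 CpG. The stretches of other Dnmt3a starts hold 40 and 15 CpG and that of another Uhrf1 start 10, each overlapping an annotated exon and not shown. The counts thus depend on the start taken. RefSeq starts were found for 7 of the 9 genes.

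The Tet genes code for the enzymes that oxidise 5-methylcytosine. Tet1 was at 8.76 and 4.87 TPM in +/+ cultures against 10.29 and 10 TPM in Chd5-/- cultures (chromosome 10, 62804570 to 62908996, minus strand). The Chd5-/- samples lay close together and above both +/+ samples, which were 0.73 apart on the log2 scale. The log2 difference was 0.56 (95% interval -0.33 to 1.44, SE 0.35), with an adjusted p of 0.371, and it was -0.034 after quantile normalization. Without +/+ replicate 2 the log2 difference of Tet1 was 0.19, and without +/+ replicate 1 it was 0.92.

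Tet3 was at 10.78 and 7.65 TPM in +/+ cultures against 13.60 and 12.47 TPM in Chd5-/- cultures (chromosome 6, 83362373 to 83459084, minus strand). The genotypes did not overlap, and the log2 difference was 0.47 (95% interval -0.26 to 1.21, SE 0.29), with an adjusted p of 0.364, and it turned to -0.14 once the trends of GC content and length were subtracted and to -0.054 under quantile normalization. B230319C09Rik, a transcript on the opposite strand, overlaps Tet3 over 6568 bases, and whether strand was used in counting is not given in the sources used here. It was at 0.21 and 0.11 TPM in +/+ cultures against 0.46 and 0.56 TPM in Chd5-/- cultures, far below Tet3.

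Tet2 was at 10.95 and 7.0 TPM in +/+ cultures against 8.74 and 14.28 TPM in Chd5-/- cultures (chromosome 3, 133463679 to 133545139, minus strand). Chd5-/- replicate 1 lay between the +/+ samples, so the genotypes overlapped. The log2 difference was 0.32 (95% interval -0.62 to 1.26, SE 0.37), with an adjusted p of 0.619, and it was -0.24 after quantile normalization. Without Chd5-/- replicate 2 the difference of Tet2 was -0.0055 and without +/+ replicate 2 it was 0.030.

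Summed over the 3 Tet genes, the level was 30.49 and 19.52 TPM in +/+ cultures against 32.63 and 36.75 TPM in Chd5-/- cultures. No Tet gene held over 41.7% or under 24.9% of its sample's sum. The log2 ratio of summed methyltransferases to summed Tet genes was 0.37 and 0.64 in +/+ cultures against 0.79 and 0.58 in Chd5-/- cultures, which overlapped (difference 0.18, exact permutation p 0.667). Without +/+ replicate 1 that difference was 0.045, and without Chd5-/- replicate 1 it was 0.075. The ratios between the Tet genes differed between genotypes by 0.24 at most with the values as deposited, each with overlap and an exact permutation p of 1. With trends of GC content and length subtracted, Tet3/Tet1 differed by -0.61 and Tet3/Tet2 by -0.33.

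Of the methyl-CpG binding genes, Mbd1 was at 19.86 and 17.21 TPM in +/+ cultures against 25 and 26.46 TPM in Chd5-/- cultures (chromosome 18, 74267605 to 74282732, plus strand). The genotypes did not overlap, and the log2 difference was 0.46 (95% interval -0.15 to 1.06, SE 0.24), with an adjusted p of 0.301. Subtracting the trends of GC content and length gave 0.082, and median-of-ratios scaling gave 0.098.

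Mbd2, which recruits the NuRD deacetylase complex to methylated CpG, was at 73.31 and 73.25 TPM in +/+ cultures against 69.62 and 56.52 TPM in Chd5-/- cultures (chromosome 18, 70568189 to 70626131, plus strand). It was the only gene of the 9 that was lower in both Chd5-/- samples. The log2 difference was -0.22 (95% interval -0.79 to 0.35, SE 0.22), with an adjusted p of 0.570. Most of it came from Chd5-/- replicate 2, without which the log2 difference of Mbd2 was -0.073. The log2 ratio of Mbd1 to Mbd2 was -1.83 and -2.03 in +/+ cultures against -1.44 and -1.07 in Chd5-/- cultures (difference 0.68, exact permutation p 0.333), and the difference was 1.21 with the trends of GC content and length subtracted. Mbd2 made up 78.7% and 81.0% of the TPM summed over both genes in +/+ cultures, against 73.6% and 68.1% in Chd5-/- cultures.

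Across the 11700 rows tested for which a GC content was found, the log2 difference was larger at higher transcript GC content (Spearman rho 0.617 across genes, which are not replicates and share the same 4 libraries). The genes above were therefore set beside rows of like GC content, in 10 bins of rows, with GC taken from the longest coding transcript. Dnmt1, at 54.0% GC, differed by 0.71, and the median of its bin was 0.71. Dnmt3a, at 51.9%, differed by 0.58 beside a median of 0.57. Mbd1 (0.46 beside 0.38) and Tet3 (0.47 beside 0.57) were also near their bin medians.

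The genes farthest from rows of like GC content were Mbd2, Tet1 and Uhrf1. Mbd2, at 56.5% GC, differed by -0.22 in a bin with a median of 0.94. Tet1, at 43.7% GC, differed by 0.56 in a bin with a median of -0.095, and Tet2, at 45.4%, by 0.32 beside 0.0031. Uhrf1, at 53.7% GC, differed by 0.22 in a bin with a median of 0.71. When the trends with GC content and transcript length were subtracted, the log2 difference of Mbd2 was -1.12 (unadjusted p 0.00365, adjusted p 0.410 by limma), that of Dnmt1 was 0.11, that of Dnmt3a 0.068, that of Uhrf1 -0.42 and that of Tet1 0.46. None of the 8 had an adjusted p-value under 0.05 in that fit either.

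**Figure D3:**
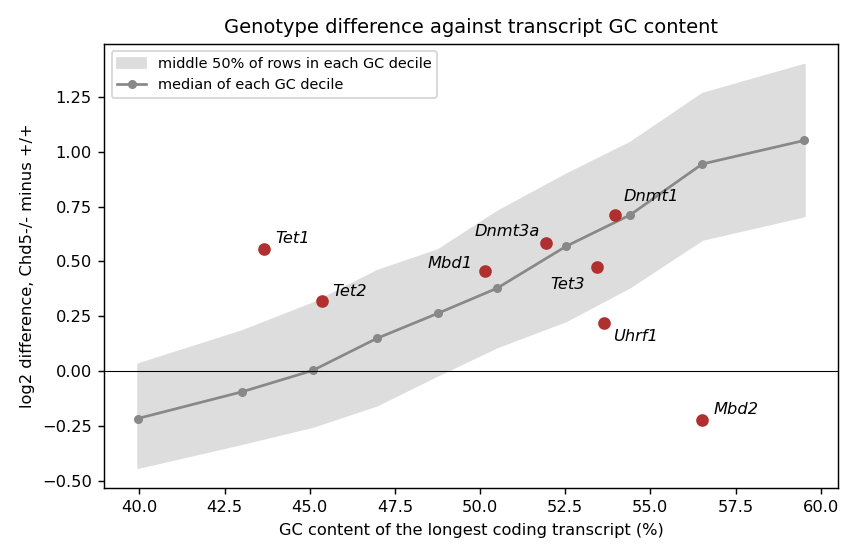
Log2 difference in log2(TPM + 1), Chd5-/- minus +/+, against transcript GC content (%), for the 8 genes tested (labelled points) and for the medians (line) and middle 50% (band) of 10 bins of all rows tested that had a GC content. Dnmt1 and Dnmt3a lay on the medians of their bins, Mbd2 lay below its bin (-0.22 beside 0.94) and Tet1 above its bin (0.56 beside -0.095).

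The genes around the 9 in the same pathway were taken from 4 lists of 62 names, of which 58 were found and 57 tested. None had an adjusted p-value under 0.05, 12 were higher and 1 lower at an unadjusted p-value under 0.05 (21.9% and 2.27% of all rows were), and the median difference was 0.29, beside 0.34 over all rows. In 29 both Chd5-/- samples lay above both +/+ samples and in 6 both lay below, where 46.3% and 13.0% of all rows did. These counts are near those of the whole table and are not a result about the pathway.

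Among the 13 other methyltransferase and targeting genes tested, 2 were higher and 1 lower at an unadjusted p-value under 0.05. Of all rows, 21.9% were higher and 2.27% lower. Ehmt2, the G9a histone H3 lysine methyltransferase, was at 11.06 and 6.75 TPM in +/+ cultures against 24.96 and 30.37 TPM in Chd5-/- cultures (log2 difference 1.56, adjusted p 0.120). Trim28, the corepressor of KRAB zinc finger proteins, was at 27.13 and 16.87 against 55.40 and 62.49 TPM (1.42, adjusted p 0.120). With the trends of GC content and length subtracted, the log2 difference of Ehmt2 was 0.59 and that of Trim28 was 0.46, with unadjusted p-values of 0.0600 and 0.0934 by limma. Trdmt1, which despite its Dnmt2 name methylates tRNA, was at 11.07 and 9.20 against 6.11 and 5.38 TPM (-0.72, adjusted p 0.205). Hells, a remodeler needed for normal DNA methylation, differed between the Chd5-/- replicates, at 33.33 and 31.31 TPM in +/+ cultures against 22.51 and 7.12 TPM in Chd5-/- cultures. Its log2 difference was -1.27, with an adjusted p of 0.222. Uhrf2, the paralog of Uhrf1, was higher than Uhrf1 in every sample, at 59.50 and 55.97 TPM in +/+ cultures against 63.17 and 93.37 TPM in Chd5-/- cultures (log2 difference 0.41, adjusted p 0.396). Dnmt3l was on the list, but no row of that name was found.

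Of the 20 demethylation and base excision genes tested, 6 were higher at an unadjusted p-value under 0.05 (21.9% of all rows were) and 0 were lower (2.27%), with a median difference of 0.40. The DNA glycosylase Neil1 was at 1.77 and 1.39 TPM in +/+ cultures against 9.11 and 7.17 TPM in Chd5-/- cultures (log2 difference 1.82). The repair scaffold Xrcc1 was at 1.76 and 1.42 against 7.12 and 8.66 TPM (1.78). The glycosylase Nthl1 was at 1.25 and 0.87 against 4.65 and 5.01 TPM (1.51), and Gadd45g, of a stress-response family tied to demethylation, was at 2.64 and 2.13 against 7.90 and 8.42 TPM (1.44). Each had an adjusted p of 0.120. With the trends of GC content and length subtracted, the log2 difference was 1.00 for Neil1, 0.80 for Xrcc1, 0.50 for Nthl1 and 0.38 for Gadd45g. Tdg, the glycosylase that excises the bases Tet enzymes make, was at 67.21 and 47.95 against 69.01 and 70.09 TPM (0.29, adjusted p 0.514).

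A further list held other methyl-CpG readers, CpG readers and their relatives, so a place on it does not mean binding of methylated CpG. Of its 13 genes tested, Mbd3 and Kdm2a were higher at an unadjusted p-value under 0.05, where 21.9% of all rows were. Mbd3, the NuRD subunit that is the closest relative of Mbd2, was at 9.22 and 5.96 TPM in +/+ cultures against 30.07 and 23.65 TPM in Chd5-/- cultures. Its log2 difference was 1.71, with an adjusted p of 0.120, and it was 0.71 after the trends with GC content and length were subtracted. Kdm2a, a CpG-binding histone demethylase, was at 31.86 and 28.30 against 44.83 and 44.77 TPM (0.56, adjusted p 0.205, and 0.28 with those trends subtracted). Of the 11 methyl donor genes tested, 2 were higher at an unadjusted p-value under 0.05, where 21.9% of all rows were. Ahcy, which clears S-adenosylhomocysteine, was at 26.65 and 19.75 TPM in +/+ cultures against 42.62 and 38.25 TPM in Chd5-/- cultures (log2 difference 0.79, adjusted p 0.166, and 0.27 with those trends subtracted).

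**Figure D4:**
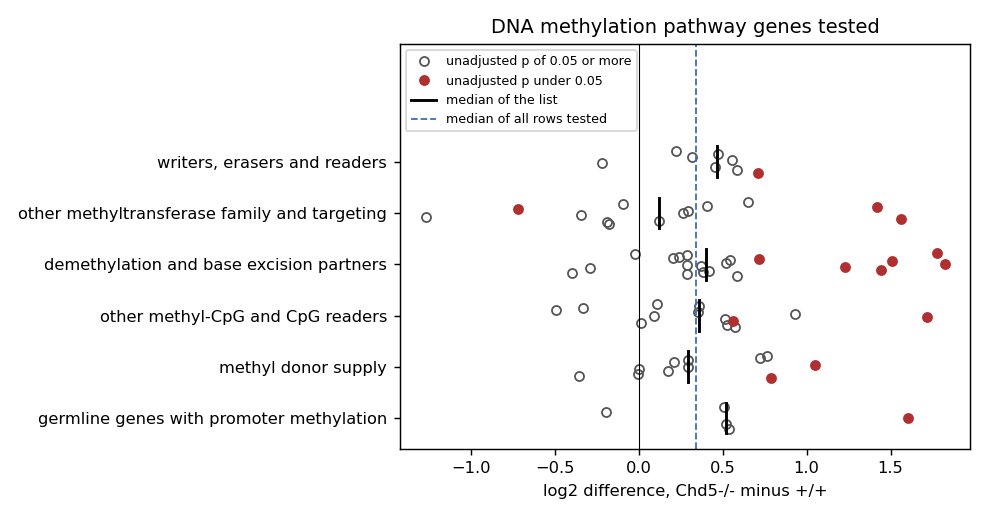
Log2 difference in log2(TPM + 1), Chd5-/- minus +/+, of every gene tested in the 9-gene group, in the 4 pathway lists and in the germline list, with the median of each list (bars) and of all rows (dashed line, 0.34), and filled points at an unadjusted p-value under 0.05. The list medians lay between 0.12 (targeting genes) and 0.52 (germline genes), on both sides of the median of all rows.

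Germline genes whose promoters are methylated and silent in somatic cells were read as a further list. Of 25 names, 16 were found and 5 had a mean of at least 1 TPM. Stag3, a meiotic cohesin subunit, was higher at an unadjusted p of 0.00596 (adjusted p 0.121), at 1.23 and 0.54 TPM in +/+ cultures against 4.82 and 4.44 TPM in Chd5-/- cultures. Tdrkh, a Tudor domain gene of the list, was at 103.34 TPM or more in every sample and so was not silent here. Zcwpw1 (14.9 TPM or more), Ddx4 (4.21 TPM or more) and Brdt (3.8 TPM or more) were also present in every sample. Stag3 was the only gene of the 5 that was higher at an unadjusted p-value under 0.05, where 21.9% of all rows were. Its +/+ mean was 0.885 TPM, so it passed the minimum of 1 TPM only through the Chd5-/- samples. Its place among the 5 thus follows from its high values there and is no further support. The genes found but not tested averaged under 1 TPM. No gene of the list had an adjusted p-value under 0.05. Methylation itself was not measured.

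The amounts of Dnmt1 and Uhrf1 are known to follow the cell cycle, so proliferation genes were set beside them. Of 24 tested, 0 were higher and 0 lower at an unadjusted p-value under 0.05, where 21.9% and 2.27% of all rows were. Their median difference of 0.34 equalled that of all rows. Their summed TPM was 1296 and 894 in +/+ cultures against 1175 and 1156 in Chd5-/- cultures. Pcna, the replication clamp that also binds Dnmt1, was at 359.42 and 290.50 TPM in +/+ cultures against 284.23 and 191.80 TPM in Chd5-/- cultures, so that both Chd5-/- values lay below both +/+ values. Of the 24 genes, 17 had a log2 difference above 0, as did Dnmt1 and 8850 of the 12576 rows tested. Among the 17 were Mcm7 (0.86), Mki67 (0.78) and Aurkb (0.76), while the others included Ccne2 (-1.34), Mcm4 (-0.50) and Pcna (-0.47). The sum was higher in +/+ replicate 1 than in +/+ replicate 2, as was the level of each of the 9 genes except Dnmt3b, and the part of this in their values was not tested.

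Rows whose 4 values most resembled those of Dnmt1, by root mean square distance of centred log2(TPM + 1), were Pdzd4 (distance 0.0047), Iqce (0.012) and Nelfa (0.017). Pdzd4 was at 4.55 and 3.19 TPM in +/+ cultures against 6.51 and 7.27 TPM in Chd5-/- cultures. Over 4 samples such likeness is common, and 370 rows lay within a distance of 0.1 of Dnmt1.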

How the data were processed

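RNA from 4 NSC cultures was sequenced from stranded mRNA libraries. The authors deposited 1 table of TPM values. Their processing notes name Bowtie2 2.2.3, RSEM 1.2.20 and the build mm10, and give neither the annotation nor the use of strand. The TPM were used as deposited, columns were mapped to samples by name, and 196 names occur in more than 1 row. The test was made on log2(TPM + 1), for rows averaging 1 TPM or more, with limma 3.58.1 in R 4.3.3 (eBayes with a trend, two-sided). The limma p-values rest on the spread between 2 cultures per genotype, with each gene's variance drawn toward a trend over all rows tested. Ratios were tested by exact permutation. GC content and length came from GENCODE M21 on GRCm38, for 93.03% of the rows tested, and trends were removed by loess (span 0.5). Promoter stretches came from RefSeq. Alternatives were other pseudocounts, minima and scalings, trend removal, a replicate block, no variance trend and leaving out each sample. The 9 genes and all lists were chosen with earlier results of these data known. Named list genes were the 4 of largest difference per direction at an unadjusted p-value under 0.05, and a few named whatever their values. Other genes were named after their values were seen. Not every gene so chosen is reported here. The fits were tested on simulated data. Python 3.11.15 was used with scipy 1.17.1 for permutations, matplotlib 3.10.9 for plots, and numpy 2.4.6 and pandas 2.3.3 otherwise.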

Additional observations from a re-analysis of the deposited data

How the results depend on the processing

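None of the 8 genes tested had an adjusted p-value under 0.05 in any alternative run. Depth is unknown, and 2 samples per genotype limit what could be found. Dnmt1, Dnmt3a and Mbd1 stayed higher and Mbd2 lower in each of 16 alternatives. A changed minimum, a replicate block or no variance trend cannot alter a gene's difference, so those fits could not show a change of direction. In the other fits the sizes moved, down to 0.11 for Dnmt1, 0.068 for Dnmt3a and 0.082 for Mbd1 under trend removal. The difference of Mbd2 ran from -1.12 to -0.073. Over all rows tested, the median difference of 0.34 became 0.0052 under median-of-ratios, -0.054 under quantile normalization, 0.13 under rescaling without the 20 most abundant rows and -0.011 under removal of GC and length trends, and the differences below are to be read relative to it. The causes of the changes were not tested.

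The count of the 8 genes higher at an unadjusted p-value under 0.05 was 1 as deposited. It was 0 under median-of-ratios, quantile, rescaling, trend removal, the replicate block and the block with trend removal, and 0 to 1 when a sample was left out. The count lower was 0 as deposited and 1, Mbd2, under median-of-ratios (-0.59), trend removal and the block with trend removal. Over all 12576 rows (11700 with trend removal), 1311, 648 and 413 were lower in those fits, against 285 as deposited. Rows higher were 2748 as deposited, 1508 under median-of-ratios, 1103 under quantile and 1863 under rescaling. They were 569 under trend removal, 2111 under the block and 401 under the block with trend removal. The counts of the 8 genes are to be read beside these. The median of the 8 genes was 0.46 as deposited, 0.12 under median-of-ratios, -0.044 under quantile, 0.075 under trend removal, 0.075 under the block with trend removal and 0.22 to 0.65 when a sample was left out.

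Some differences changed sign. Tet1 was -0.034 under quantile. Tet2 was -0.018 under median-of-ratios, -0.24 under quantile and -0.0055 to 0.64 when a sample was left out. Tet3 was -0.054 under quantile, and -0.14 under trend removal with or without the block. Uhrf1 was -0.12 under median-of-ratios, -0.28 under quantile, -0.42 under trend removal with or without the block, and -0.058 to 0.50 when a sample was left out. Leaving out a sample gave -0.068 to 0.33 for the ratio Dnmt1/Dnmt3a, -0.23 to 0.060 for Tet3/Tet1, -0.23 to 0.54 for Tet3/Tet2 and -0.10 to 0.58 for Tet1/Tet2. Tet3/Tet2 was -0.33 under trend removal.

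Of the 57 pathway genes, 0 were called at an adjusted p-value as deposited, and 0 to 7 when a sample was left out (7 without Chd5-/- replicate 1 and 4 without Chd5-/- replicate 2, fits in which the lone sample is assumed to vary like the others). Over all rows, 1549 and 1088 were called in those fits, against 7 as deposited. The 12 pathway genes higher at an unadjusted p-value became 3 under trend removal, 1 under the block with trend removal and 7 to 14 when a sample was left out. The 1 lower became 0 with no minimum, 0 with a minimum of 10 TPM, 4 under median-of-ratios, 5 under quantile and 3 under rescaling. Over all rows, 384, 246, 1311, 1024 and 820 were lower in those fits, against 285 as deposited. Rows higher were 569 under trend removal and 401 under the block with trend removal, against 2748 as deposited. The changes in the pathway counts are to be read beside these and are not a result about the pathway. Of the germline genes, 0 were called as deposited and 0 to 1 when a sample was left out. The 1 higher became 0 with a minimum of 10 TPM and 0 to 2 when a sample was left out, and the 0 lower became 0 to 1.

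Same-numbered samples did not deviate together across rows (Pearson -0.152, Spearman -0.167), so the replicate numbers were not taken as a pairing. With the replicate block 0 rows were called. The crossed pairing, chosen after seeing the data, called 5 rows and none of the 9 genes.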

Other observations

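The ratio of Mbd3 to Mbd2 was computed after their values were seen. On the log2 scale of (TPM + 1) within a sample it was -2.86 and -3.42 in +/+ cultures against -1.18 and -1.22 in Chd5-/- cultures, so that Mbd2 exceeded Mbd3 in every sample and by less in both Chd5-/- samples. The difference was 1.94, with an exact permutation p of 0.333, the smallest that 2 samples against 2 allow. With trends of GC content and transcript length removed it was 1.84. It was the widest of the 9 ratios computed, and it was chosen for its width.

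Dnmt1 and Hells, both known to be needed for methylation of replicated DNA, differed in opposite directions, neither with an adjusted p-value under 0.05. Dnmt1 was at 28.73 and 31.94 TPM in the Chd5-/- samples and Hells at 22.51 and 7.12 TPM, where in the +/+ samples Dnmt1 was at 20.93 and 15.66 TPM and Hells at 33.33 and 31.31 TPM. Hells was below Dnmt1 in both Chd5-/- samples and above it in both +/+ samples. The median difference of rows of like GC content was 0.71 for Dnmt1 and -0.22 for Hells. With trends of GC content and transcript length removed, the log2 difference was 0.11 for Dnmt1 and -1.07 for Hells. This pair was also chosen after the values were seen and was not tested.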
